A study of Homo sapiens with 9 samples.

Results

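SR proteins and heterogeneous nuclear ribonucleoproteins (hnRNPs) are the main families of RNA-binding proteins that steer pre-mRNA splicing, and their loss was read out in a genome-wide CRISPR-Cas9 knockout screen. All genes named SRSF followed by a number, or with a name starting with HNRNP, were taken from the guide table, which gave 36 genes (11 SRSF and 25 HNRNP) of the 19114 genes targeted. The cells were HEL, an established human erythroleukemia line with mutated JAK2, which stably expressed Cas9 in every sample and were infected with the Brunello lentiviral library of 76441 guides against genes and 1000 non-targeting guides. Cells were kept for 12 days with 200 nM of the JAK inhibitor ruxolitinib (RUX, 4 libraries) or with the solvent DMSO (4 libraries), and 1 library was made at day 0 before treatment. The screen thus asked which knockouts were lost from the culture while JAK2 was inhibited and which were lost without the inhibitor. All 9 libraries came from this 1 cell line, and whether the 4 replicates of a condition were infected separately is not given in the sources used here, so p-values measure only the spread between these libraries.

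SR proteins carry 1 or more RNA recognition motifs and a tail rich in arginine and serine. They bind exonic enhancers, recruit the U1 snRNP and the U2 auxiliary factor to the neighbouring splice sites, and are moved in and out of nuclear speckles by phosphorylation. The hnRNPs coat nascent transcripts, often act against SR proteins by keeping exons out of the mRNA, and also take part in export, stability and translation of mRNA. Both families hold close paralogs that can stand in for each other, and many hnRNP genes have processed pseudogenes. In myeloid neoplasms SRSF2 is among the splicing genes that are found mutated.

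The readout was the abundance of each guide in genomic DNA, so a knockout that slows growth or kills cells lowers the reads of its guides by day 12. The gene score used here is the mean over a gene's guides of the natural logarithm of the day 12 over the day 0 value, with the libraries aligned on the non-targeting guides. A score of 0 means no change relative to those guides, and a score below -0.5 means that less than 60.7% of the day 0 abundance was left. The study counts genes below the same number as dependencies, but on scores from a fitted model and not on mean log ratios, so the cut-off marks a different quantity here. The 9 libraries held 19631338 to 26611323 reads on guides. The 36 genes had 144 guides with 13 to 931 reads at day 0 (median 228), and 143 of them passed the minimum value of 30 at day 0, so all 36 genes were scored among 19112 genes in all. Between the non-targeting guides the log ratios spread with an SD of 0.459 in DMSO replicate 3 and of 0.264 to 0.303 in the other 7 day 12 libraries. Every score is relative to the same day 0 library, whose own error is therefore shared by all of them and cannot be measured.

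Most SR protein and hnRNP genes scored above -0.5 in both conditions, and 4 of the 5 genes with a score below -0.5 were SR proteins. Under RUX, 5 of the 36 genes had a score below -0.5 (SRSF1, SRSF2, SRSF3, HNRNPC and SRSF12), against 4.63% of all genes. Under DMSO, 4 of the 36 had such a score (SRSF1, SRSF2, SRSF3 and HNRNPC), against 4.32% of all genes. SRSF1 and SRSF2 also fell below day 0 in limma with Benjamini-Hochberg adjustment over all genes, under RUX (2 of 36, where 1.58% of all genes fell) and under DMSO (2 of 36, where 1.15% of all genes fell). None of the 36 rose in either condition. At an unadjusted p under 0.05, 8 of the 36 were lower and 0 higher under RUX, where 9.5% of all genes were lower and 0.638% higher, and 7 were lower and 0 higher under DMSO, where 8.39% of all genes were lower and 1.03% higher. On reads summed per gene, edgeR called 2 of the 36 under RUX (0.947% of all genes) and 3 under DMSO (0.539%), and DESeq2 called 3 under RUX (1.23%) and 3 under DMSO (0.874%). The median score of the 36 genes was -0.159 under RUX and -0.185 under DMSO, beside -0.0946 for RUX and -0.0845 for DMSO over all genes. Of the 36 genes, 18 lay below 0 in each of the 8 day 12 libraries. The share of all genes that did so was not computed. The mean was below 0 for 71.5% of all genes under RUX and 68.5% under DMSO, so this count was not read as a trait of the set.

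**Figure D1:**
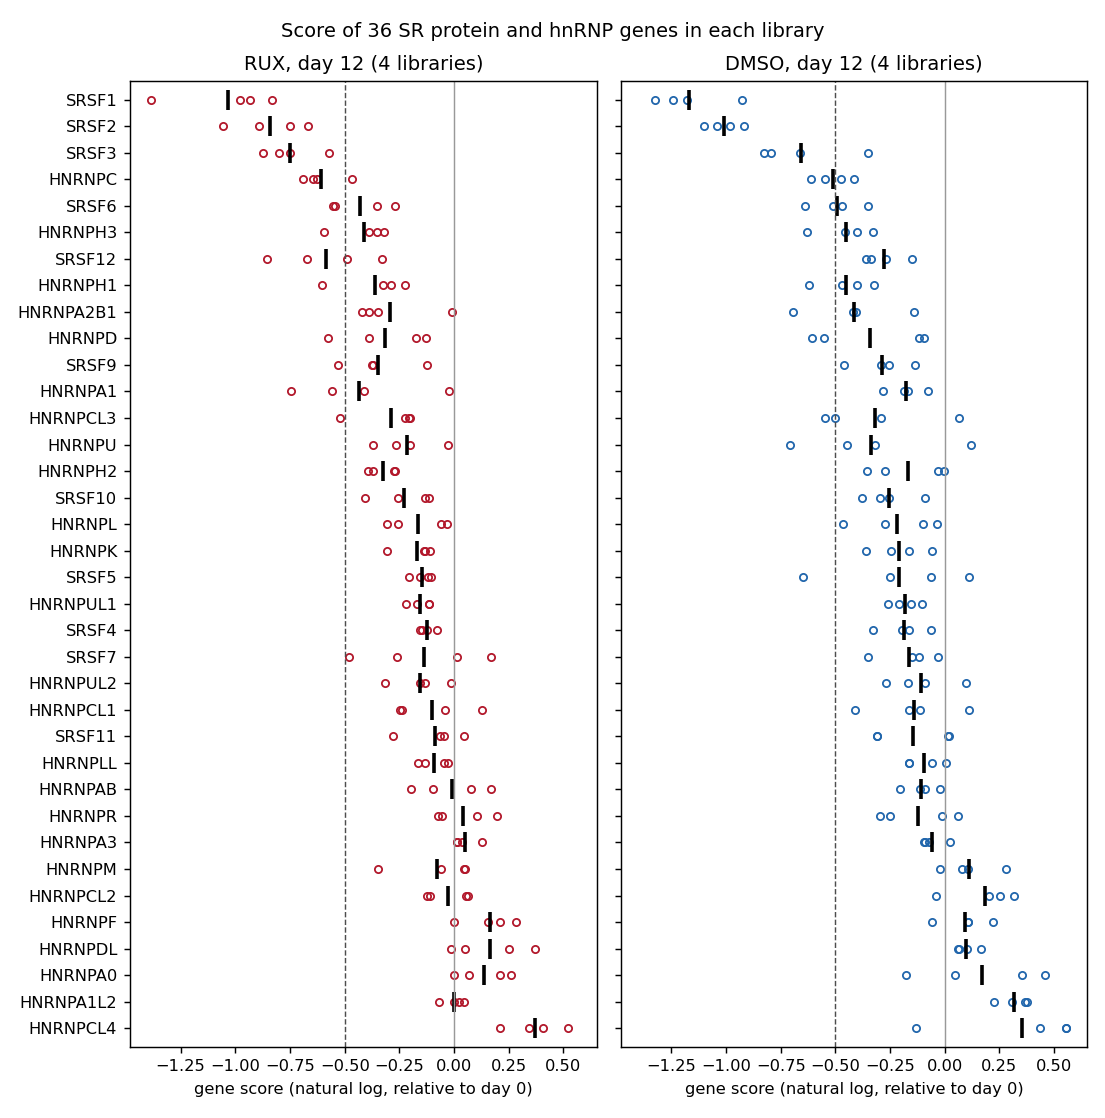
Gene score (natural log of day 12 over day 0, x axis) of the 36 genes (rows) in each of 4 RUX libraries (left, red circles) and 4 DMSO libraries (right, blue circles), with the mean as a black bar and the -0.5 cut-off as a dashed line. SRSF1, SRSF2 and SRSF3 lie at the top with means of -0.749 or lower under RUX, and HNRNPCL4 lies at the bottom with 0.371 under RUX and 0.353 under DMSO.

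SR protein genes had lower medians than hnRNP genes, a difference that was not tested. The 11 SR protein genes had medians of -0.350 in RUX and -0.279 in DMSO libraries, and all 11 means lay below 0 in both conditions. The 25 hnRNP genes had medians of -0.154 in RUX and -0.143 in DMSO libraries, with 19 means below 0 under RUX and 18 under DMSO. Of all genes, 71.5% had a mean below 0 under RUX and 68.5% under DMSO, so the hnRNP genes were near the background in this count. Just outside the -0.5 cut-off lay HNRNPA1 under RUX (-0.434) and SRSF6 under DMSO (-0.493), and just inside it lay SRSF12 under RUX (-0.586) and HNRNPC under DMSO (-0.511).

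SRSF1, the prototype SR protein that activates exon inclusion and helps U1 snRNP bind the 5′ splice site, was the member with the lowest score in both conditions. Its scores in replicates 1 to 4 were -0.98, -1.39, -0.93 and -0.83 under RUX (mean -1.03 ± 0.24, SD, n = 4) and -1.24, -0.93, -1.33 and -1.18 under DMSO (mean -1.17 ± 0.17, SD, n = 4). The 2 conditions overlapped and all 8 libraries lay far below day 0, with 35.6% of the day 0 abundance left under RUX and 31.05% under DMSO. The adjusted limma p was 0.00617 under RUX and 0.00203 under DMSO, and SRSF1 ranked 115 under RUX and 52 under DMSO among the 19112 genes from the lowest score. Among its 4 guides, 3 were depleted and 1 was not. The guide with the most reads had scaled values of 156.5, 111.2, 66.5 and 143.9 in the RUX libraries and 106.1, 213.1, 138.6 and 111.9 in the DMSO libraries, against 506.0 at day 0. The weakest guide had 190.9, 87.4, 244.3 and 248.9 under RUX and 193.5, 161.8, 165.4 and 115.4 under DMSO, against 212.7 at day 0. The 3 depleted guides averaged log ratios of -1.46, -1.35 and -1.16 under RUX, and the weakest averaged -0.17. SRSF1 lies on chromosome 17 (chr17:58000919-58007346, minus strand, GRCh38), and the scores of its 20 nearest scored genes had their median at -0.143 under RUX and at -0.108 under DMSO, so the region as a whole was not depleted to the same degree.

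SRSF2, which binds exonic enhancers through a single RNA recognition motif, was next. Its scores were -0.75, -0.67, -1.06 and -0.89 under RUX (mean -0.843 ± 0.171, SD, n = 4) and -1.10, -0.98, -0.92 and -1.04 under DMSO (mean -1.01 ± 0.0788, SD, n = 4). All 8 libraries lay below -0.5 and the conditions overlapped. The adjusted limma p was 0.0458 under RUX and 0.0121 under DMSO. The guides were uneven: the strongest fell to scaled values of 30.7, 26.3, 16.9 and 7.35 under RUX and 6.88, 25.2, 41.6 and 7.81 under DMSO, against 134.1 at day 0. Its mean log ratio was -1.78 under RUX and -1.87 under DMSO, and those of the other 3 guides were -0.92, -0.35 and -0.33 under RUX and -0.98, -0.55 and -0.64 under DMSO. Under RUX the call was close to the threshold and was lost in 15 of 21 alternative settings, with an adjusted p of 0.486 when the guide farthest from the others was left out. It was also lost without DMSO replicate 1 (0.0534), DMSO replicate 4 (0.0507), RUX replicate 1 (0.0601), RUX replicate 3 (0.110) or RUX replicate 4 (0.0851).

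SRSF3, the smallest SR protein, which also couples splicing to mRNA export, scored -0.80, -0.87, -0.75 and -0.57 under RUX (mean -0.749 ± 0.128, SD, n = 4) and -0.83, -0.79, -0.35 and -0.66 under DMSO (mean -0.658 ± 0.217, SD, n = 4). It did not pass the test in either condition, with an adjusted limma p of 0.0533 under RUX and 0.145 under DMSO. The groups overlapped, and DMSO replicate 3, the library with the widest control guides, was the highest of the 8. Without that library the adjusted p was 0.0287 under RUX and 0.0466 under DMSO, and without DMSO replicate 2 it was 0.0411 under RUX. SRSF3 passed under RUX in 8 of 21 alternative settings, with an adjusted p of 0.0119 by edgeR and 0.005 by DESeq2, and under DMSO in 4 of 21, with 0.0146 by edgeR and 0.00517 by DESeq2. When its most distant guide was omitted, its score was -0.329 under RUX and -0.337 under DMSO, above the -0.5 cut-off. The 4 guides ranged widely. One had values of 31.7, 21.2, 13.1 and 21 under RUX and 37.3, 21.6, 65.8 and 21.7 under DMSO, against 188.5 at day 0. Another, with the deepest coverage of the 144 guides, had 384.7, 353.9, 407.2 and 350.7 under RUX and 358.5, 275.1, 402.8 and 385.2 under DMSO, against 938.4 at day 0. The fourth was not depleted at all, with a mean log ratio of 0.241 under RUX and 0.305 under DMSO, and had 78.6 at day 0.

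**Figure D2:**
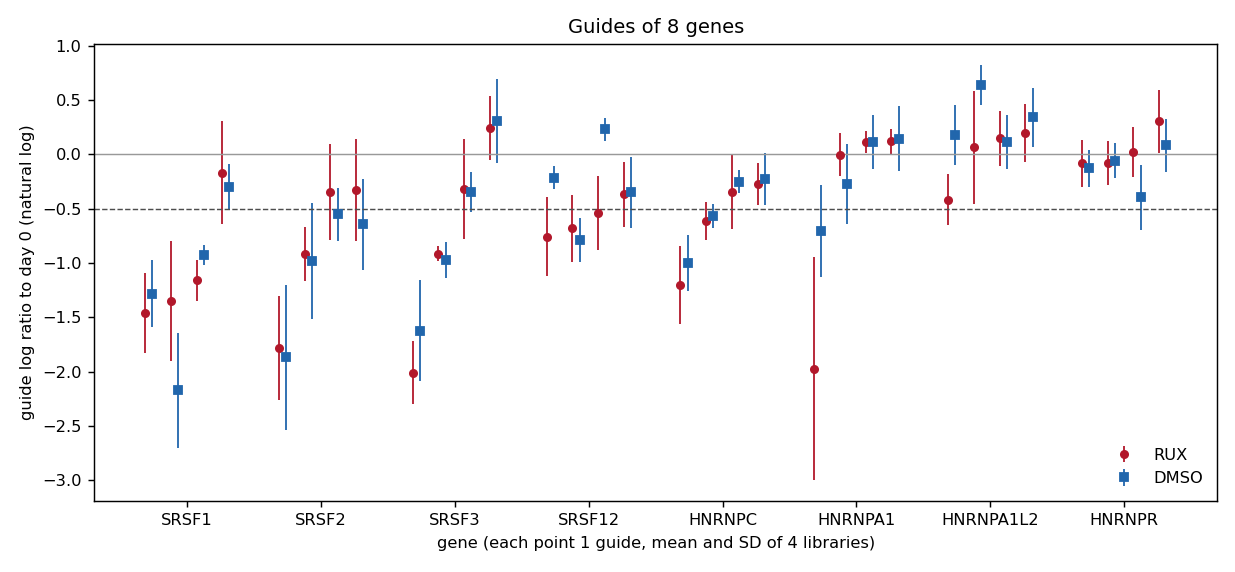
Log ratio to day 0 (natural log, y axis) of each guide of 8 genes (x axis), as mean and SD over 4 RUX libraries (red circles) and 4 DMSO libraries (blue squares). In SRSF1 3 of 4 guides lie near or below -0.93 in both conditions, whereas in HNRNPA1 a single guide at -1.97 under RUX stands apart from the other 3.

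SRSF12, a little studied paralog of SRSF10, known for acting against other SR proteins in splicing assays, passed the -0.5 cut-off under RUX alone. Its scores were -0.49, -0.33, -0.67 and -0.85 under RUX (mean -0.586 ± 0.227, SD, n = 4) and -0.34, -0.15, -0.27 and -0.36 under DMSO (mean -0.279 ± 0.0947, SD, n = 4). RUX replicate 2 lay within the DMSO range and the other 3 RUX libraries lay below it. The adjusted limma p against day 0 was 0.208 under RUX and 0.748 under DMSO. Its mean under RUX was no longer below -0.5 without RUX replicate 4 (-0.497).

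The remaining SR proteins with a pair of RNA recognition motifs in the same class as SRSF1 were weaker. SRSF6 averaged -0.431 ± 0.142 under RUX and -0.493 ± 0.117 under DMSO (SD, n = 4 each), with all 4 of its guides below 0 in both conditions. SRSF9, the closest paralog of SRSF1, averaged -0.350 ± 0.167 under RUX and -0.286 ± 0.133 under DMSO. SRSF4 (-0.125 under RUX, -0.188 under DMSO) and SRSF5 (-0.147 under RUX, -0.212 under DMSO) lay below the medians of all genes, -0.0946 under RUX and -0.0845 under DMSO. Of the others with 1 motif, SRSF10 averaged -0.228 under RUX and -0.256 under DMSO, SRSF7, which like SRSF3 has a role in mRNA export, -0.139 under RUX and -0.162 under DMSO, and SRSF11 -0.0866 under RUX and -0.146 under DMSO. None of these 7 passed the test in either condition.

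In the reported scores, HNRNPC alone among the hnRNPs lay below -0.5. The hnRNP C proteins form tetramers that bind uridine tracts in nascent transcripts and keep the U2 auxiliary factor off cryptic splice sites. HNRNPC scored -0.69, -0.47, -0.65 and -0.63 under RUX (mean -0.608 ± 0.0971, SD, n = 4) and -0.41, -0.55, -0.47 and -0.61 under DMSO (mean -0.511 ± 0.0862, SD, n = 4). The groups overlapped, and the adjusted limma p was 0.111 under RUX and 0.279 under DMSO. Under RUX it passed in 2 of 21 alternative settings, by DESeq2 (adjusted p = 0.0177) and in limma without a variance trend (0.0427). Its strongest guide had values of 136.9, 123.1, 73.0 and 63.0 under RUX and 167.0, 98.9, 120.4 and 91.1 under DMSO, against 324.5 at day 0, and the 4 guides averaged -1.20, -0.61, -0.34 and -0.27 under RUX. The mean was at -0.410 under RUX and -0.348 under DMSO when the guide farthest from the others was left out. Under DMSO it was also above the cut-off without DMSO replicate 2 (-0.499) or DMSO replicate 4 (-0.477).

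HNRNPC has 4 intronless or nearly intronless relatives, HNRNPCL1 to HNRNPCL4, which lie together on chromosome 1 and are each targeted by guides of their own. Their scores were -0.100, -0.0296, -0.288 and 0.371 under RUX and -0.143, 0.182, -0.320 and 0.353 under DMSO, in the order of their numbers. HNRNPCL4 was thus the highest of all 36 genes in both conditions, with 0.34, 0.41, 0.21 and 0.52 under RUX and 0.55, 0.56, -0.13 and 0.43 under DMSO, and its adjusted limma p was 0.608 under RUX and 0.663 under DMSO. The 2 HNRNPCL4 guides with the lowest day 0 values (57.45 and 67.53) averaged 0.582 and 0.850 under RUX and 0.937 and 0.564 under DMSO. The other 2 averaged -0.170 and 0.220 under RUX and 0.128 and -0.218 under DMSO. HNRNPC and its 4 relatives are so alike that a Cas9 guide can cut several of them. The sequences of the library's guides were not used here, so the sites open to Cas9, which are 20 bases followed by the NGG motif that Cas9 needs, were read from the coding exons of GRCh38 with the GENCODE annotation, and all their exact copies in the genome were counted. In HNRNPC 84 of 94 such sites (89.4%) had another exact match, and 12 sites were shared over all 23 bases by HNRNPC and all 4 relatives. A pair of these shared sites is given to show how far the identity goes, each with its NGG motif in capitals; they are sites in the reference and are not known to be guides of the library.
Site shared by HNRNPC (chr14:21212989-21213011, minus strand), HNRNPCL1 (chr1:12847796-12847818), HNRNPCL2 (chr1:13115907-13115929), HNRNPCL3 (chr1:13061796-13061818) and HNRNPCL4 (chr1:13164974-13164996): agtggcttcaattctaagagTGG
Second site shared by HNRNPC (chr14:21213083-21213105, plus strand) and the same 4 relatives: gaggaggaggtacacgtgctGGG
The first of these occurs at 9 places in the genome and the second at 8. Reads of a guide to HNRNPC and of a guide to HNRNPCL3 can therefore report cuts in the same genes, and how far this entered the scores was not tested.

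Among the 5 classes of hnRNPs, the A/B and D proteins had the highest medians, -0.00613 under RUX and -0.0828 under DMSO over 8 genes. HNRNPA1, one of the most abundant hnRNPs and a repressor of exon inclusion, scored -0.74, -0.56, -0.03 and -0.41 under RUX (mean -0.434 ± 0.305, SD, n = 4) and -0.18, -0.28, -0.17 and -0.07 under DMSO (mean -0.177 ± 0.0859, SD, n = 4). Its spread over the RUX libraries was the widest of the 36 genes. A single guide carried it, with values of 3.73, 10.2, 89.9 and 24.2 under RUX and 118.8, 50.4, 122.1 and 61.6 under DMSO, against 171.3 at day 0. The other 3 guides averaged between -0.0032 and 0.121 under RUX, and with the farthest guide left out the gene's score under RUX was 0.0774. Without RUX replicate 3, in which this guide kept most reads, the gene's score under RUX was -0.571. HNRNPA2B1, which binds to the same kind of motif as HNRNPA1 and sorts RNAs, also had 1 guide well below its others. That guide averaged -0.993 under RUX and -1.33 under DMSO, and a second guide averaged -0.331 under RUX and -0.377 under DMSO. The gene averaged -0.292 ± 0.190 under RUX and -0.414 ± 0.224 under DMSO, whereas HNRNPA1 was lower under RUX. The 4 guides of HNRNPA2B1 were not low together. HNRNPD, known for binding AU-rich elements and speeding mRNA decay, averaged -0.318 under RUX and -0.342 under DMSO, and HNRNPA3, HNRNPAB, HNRNPDL and HNRNPA0 lay between -0.0115 and 0.164 under RUX and between -0.107 and 0.170 under DMSO.

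HNRNPA1 also has the largest number of named pseudogenes among these genes, 74, and an intronless relative on chromosome 13, HNRNPA1L2. Of its 132 candidate sites, 123 (93.2%) had another exact match, with up to 34 places in the genome for 1 site. By 20 bases followed by any NGG motif, 77 of them matched HNRNPA1L2, and 74 sites were identical over all 23 bases. In HNRNPA1L2 83.5% of the sites and in HNRNPA3 97.8% had another match.
Site shared by HNRNPA1 (chr12:54281850-54281872, minus strand) and HNRNPA1L2 (chr13:52642680-52642702, minus strand), at 30 places in the genome: tgcatccacctcctccacagTGG
Second site shared by HNRNPA1 (chr12:54281404-54281426, plus strand) and HNRNPA1L2 (chr13:52642526-52642548, plus strand), at 21 places: cagctgaggaagctcttcatTGG
Both sites are shown because a guide to either would match many loci at once. In SRSF1, SRSF4, SRSF5 and SRSF7, by contrast, 0% of the sites had a second match.

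Genes with many exact copies lay on both sides of 0. In 10 genes more than 50% of the candidate sites had another match (HNRNPA1, HNRNPA1L2, HNRNPA3, HNRNPC, HNRNPCL1 to HNRNPCL4, HNRNPK and SRSF10), and their scores ranged from -0.608 to 0.371 under RUX with a median of -0.136. In the other 26 genes the scores ranged from -1.03 to 0.164 with a median of -0.159. Below -0.5 under RUX were 1 of the 10 and 4 of the 26. SRSF3 stood between the extremes with 42.3% of its 52 sites, 12 of which match the processed pseudogene SRSF3P4. In SRSF2 only 6.72% of 134 sites had another match, 9 sites in all, and each of these 9 was found in SRSF8, a retrocopy of SRSF2 that has no guides in the table. SRSF12 shared 1 of 74 sites with its paralog SRSF10.
Site shared by SRSF10 (chr1:23978713-23978735, plus strand) and SRSF12 (chr6:89107154-89107176, plus strand): tgaacataagcaaatcctctTGG

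**Figure D3:**
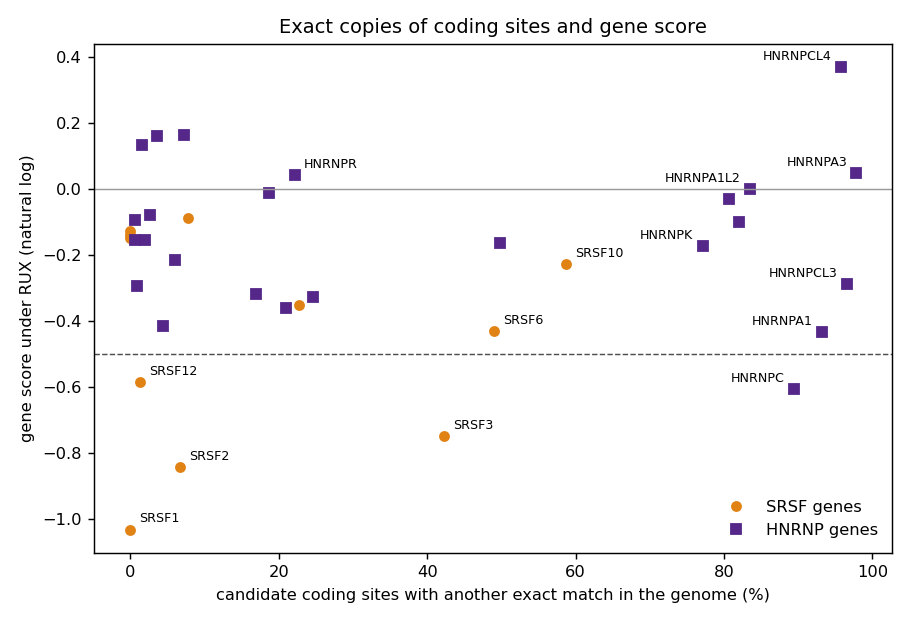
Share of candidate Cas9 sites in a gene's coding exons that have another exact match in GRCh38 (x axis, %) and gene score under RUX (natural log, y axis) of 11 SRSF genes (orange circles) and 25 HNRNP genes (purple squares), with the -0.5 cut-off dashed. SRSF1 and SRSF2 lie at 0% and 6.72%, HNRNPC at 89.4%, and genes with shares over 80% reach from -0.608 to 0.371.

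The hnRNP F/H proteins, which bind runs of guanosines, showed moderate depletion with the exception of HNRNPF. HNRNPH3 averaged -0.414 ± 0.123 under RUX and -0.454 ± 0.128 under DMSO, HNRNPH1 -0.360 ± 0.167 under RUX and -0.453 ± 0.127 under DMSO, and HNRNPH2 -0.327 ± 0.0646 under RUX and -0.166 ± 0.175 under DMSO (SD, n = 4 each). HNRNPF averaged 0.162 under RUX and 0.0933 under DMSO. In HNRNPH3 all 4 guides lay between -0.574 and -0.299 under RUX, while in HNRNPH1 one guide was at -0.996 and a pair of guides was just above 0. HNRNPH1 and HNRNPH2 share 7 candidate sites over all 23 bases. None of these 4 genes passed the test.

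Most of the other hnRNPs lay close to the median of all genes, with HNRNPU lower and HNRNPM higher under DMSO. HNRNPK, a KH-domain protein that binds cytidine-rich sequences and acts in transcription as well, averaged -0.171 under RUX and -0.208 under DMSO, and 77.1% of its candidate sites had another match. HNRNPL and its paralog HNRNPLL, which bind CA repeats, averaged -0.164 and -0.0931 under RUX and -0.218 and -0.0947 under DMSO, in that order of genes. HNRNPM averaged -0.0778 under RUX and 0.111 under DMSO, and HNRNPR, which binds mRNA in nucleus and cytoplasm, 0.0423 under RUX and -0.124 under DMSO. HNRNPU, the scaffold attachment protein that also binds chromatin, averaged -0.216 under RUX and -0.337 under DMSO, with DMSO libraries spread from -0.705 to 0.119. Under DMSO HNRNPU ranked 2189 among the 19112 genes from the lowest score, with 2 of its 4 guides below -0.5. It did not pass the test. With the farthest guide left out, HNRNPU and HNRNPH3 scored below -0.5 under DMSO and HNRNPC did not. The HNRNPU relatives HNRNPUL1 and HNRNPUL2 averaged -0.154 each under RUX and -0.182 and -0.108 under DMSO.

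Depletion was uneven between the guides of a gene. Of the 143 scored guides of the 36 genes, 27 (18.9%) had a mean log ratio below -0.5 under RUX and 30 (21%) under DMSO, beside 11.8% of all guides under RUX and 11.8% under DMSO. Of the non-targeting guides 0.808% lay below -0.5 under RUX and 3.03% under DMSO. Only SRSF1 and SRSF12 had 3 or more guides below -0.5 under RUX, 2 of 36 genes, beside 1.85% of all genes. Under DMSO SRSF2 had 4 such guides, SRSF1 had 3 and SRSF12 had 1, and the share over all genes was not computed. The median SD between guides of a gene was 0.295 in the 36 genes and 0.279 in all genes. Guides to 1 gene share their target and were not counted as replicates.

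Scores under RUX and DMSO were close to each other for most of the 36 genes. In the contrast of RUX with DMSO, 0 of 36 genes passed limma with Benjamini-Hochberg adjustment, where 0.0419% of all genes passed. At an unadjusted p under 0.05, 3 of the 36 were lower and 0 higher, where 6.31% of all genes were lower and 3.14% higher, so these counts were near the background. On reads summed per gene, edgeR called 0 of the 36 (0.0262% of all genes), and DESeq2 called 1, SRSF12 (0.277% of all genes). The differences ranged from -0.319 to 0.168, and their median was 0.0340 beside -0.0112 over all genes. The half-width of their 95% intervals, which are not adjusted for the number of genes, was 0.159 to 0.303. A difference larger than its half-width can still fail the adjusted test, as the -0.319 of HNRNPA1L2 did (limma adjusted p = 0.358). The day 0 library cancels from this contrast.

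**Figure D4:**
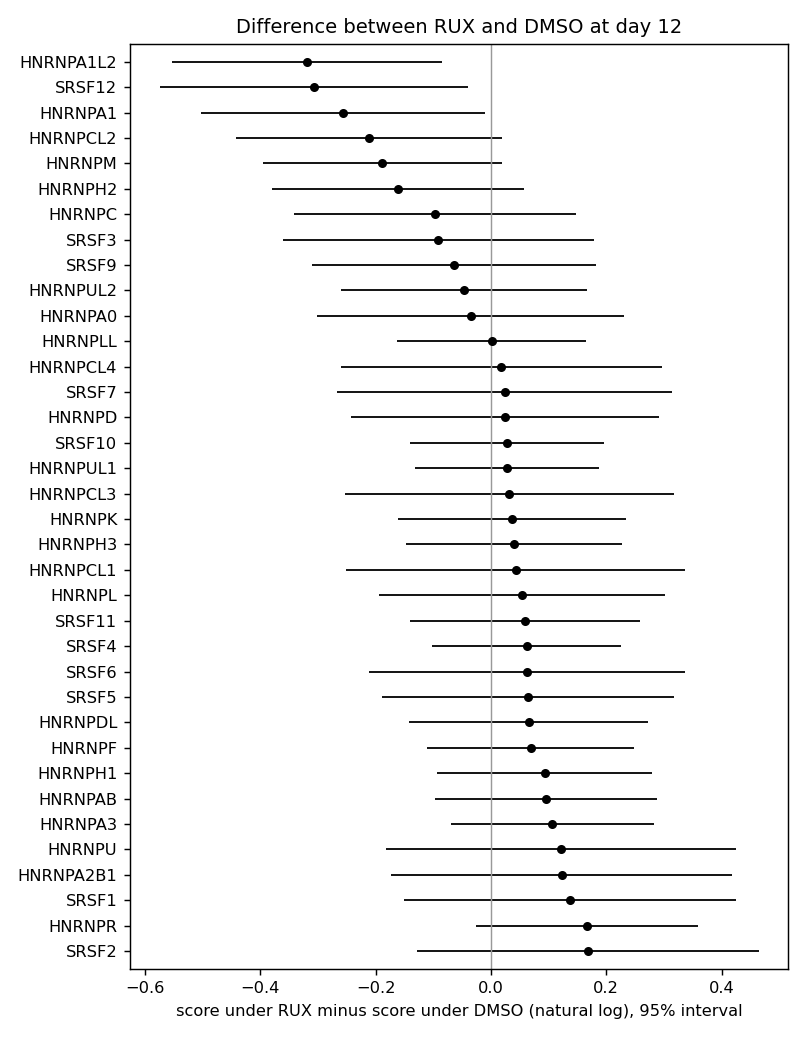
Score under RUX minus score under DMSO (natural log, x axis) of the 36 genes (rows), with the 95% interval from limma over 9 libraries. The intervals of HNRNPA1L2, SRSF12 and HNRNPA1 lie below 0 before adjustment, and no interval lies above 0.

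HNRNPA1L2 was the 1 member of 36 whose libraries did not overlap between the conditions. Of all genes 4.94% did not overlap, so this count was not above the background. Its scores were 0.04, -0.0004, 0.02 and -0.07 under RUX (mean -0.0008 ± 0.05, SD, n = 4) and 0.31, 0.37, 0.37 and 0.23 under DMSO (mean 0.318 ± 0.0686, SD, n = 4). The RUX libraries sat at day 0 level and all 4 DMSO libraries sat above it. The difference was -0.319 (95% interval -0.554 to -0.0843, limma adjusted p = 0.358). The two-sided exact permutation p of 0.0286 is the smallest that 4 against 4 libraries can give. It follows from the lack of overlap and adds nothing to it. Its 4 guides averaged -0.415, 0.0651, 0.148 and 0.199 under RUX and 0.175, 0.641, 0.116 and 0.341 under DMSO.

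SRSF12 differed by -0.307 (95% interval -0.574 to -0.0393, limma adjusted p = 0.461, exact permutation p = 0.0857). The guide behind most of this had values of 199.3, 294.5, 170.4 and 127.1 under RUX and 362.4, 415.4, 472.0 and 420.8 under DMSO, against 328.6 at day 0. Another guide had 334.4, 197.8, 146.0 and 161.7 under RUX and 328.1, 329.1, 405.4 and 325.4 under DMSO, against 429.4 at day 0. In the first all RUX libraries lay below all DMSO libraries, and in the second RUX replicate 1 lay within the DMSO range. The other 2 guides averaged -0.680 and -0.366 under RUX and -0.788 and -0.346 under DMSO and thus did not separate the conditions. In reads summed per gene the difference was -0.511 on the natural log scale, with an adjusted p of 0.0349 by DESeq2 and 0.102 by edgeR. A sum of reads gives more weight to guides with more reads. The first 2 guides had 326 and 426 reads at day 0, and the other 2 had 142 and 59. How far this weighting set the difference was not tested.

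HNRNPA1 differed by -0.257 (95% interval -0.503 to -0.0108, limma adjusted p = 0.510, exact permutation p = 0.200), through the 1 guide described above, and by 0.0796 when that guide was left out. In the other direction SRSF2 differed by 0.168 (95% interval -0.128 to 0.464, adjusted p = 0.760), HNRNPR by 0.167 (-0.0252 to 0.358, adjusted p = 0.586) and SRSF1 by 0.137 (-0.151 to 0.425, adjusted p = 0.816). HNRNPR scored -0.06, 0.10, -0.08 and 0.20 under RUX (mean 0.0423 ± 0.131, SD, n = 4) and -0.01, 0.06, -0.30 and -0.25 under DMSO (mean -0.124 ± 0.175, SD, n = 4), and the groups overlapped. SRSF3 differed by -0.0911 (-0.360 to 0.178) and HNRNPC by -0.0968 (-0.341 to 0.148).

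The genes that work with SR proteins and hnRNPs were read in the same way. Of all genes, 4.63% scored below -0.5 under RUX and 4.32% under DMSO. In limma 1.58% of all genes fell under RUX and 1.15% under DMSO. Of 38 core snRNP and SF3 proteins, which form the spliceosome itself, 13 had a score below -0.5 under RUX and 15 under DMSO, and 7 fell in limma under RUX and 5 under DMSO, with median scores of -0.414 under RUX and -0.383 under DMSO. PRPF8, the scaffold of the catalytic core, averaged -1.79 ± 0.339 under RUX and -1.91 ± 0.151 under DMSO, and the Sm protein SNRPD3 -1.70 ± 0.210 under RUX and -1.62 ± 0.341 under DMSO (SD, n = 4 each). SRSF1 thus lay above these but below SF3B1, which averaged -0.600 under RUX and -0.461 under DMSO. Other core proteins had weaker scores, such as EFTUD2 (-0.315 under RUX, -0.146 under DMSO) and SNRNP200 (-0.198 under RUX, -0.215 under DMSO). A score above -0.5 was therefore not read as absence of an effect.

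Of 19 scored hnRNP family members that do not carry an HNRNP name, 2 fell in limma in both conditions: RBMX (hnRNP G) with -1.24 ± 0.133 under RUX and -1.15 ± 0.305 under DMSO, and PCBP1 (hnRNP E1), which binds poly(C), with -1.04 ± 0.123 under RUX and -1.04 ± 0.277 under DMSO. Both lay below each of the 25 genes named HNRNP. For this list and those that follow, the shares of all genes that fell were 1.58% under RUX and 1.15% under DMSO. Of 30 SR-related proteins, 4 had a score below -0.5 under RUX and 6 under DMSO, beside 4.63% and 4.32% of all genes. In limma 2 fell under RUX (SON, a speckle protein, at -0.771, and LUC7L3, a U1-associated protein, at -0.753) and 2 under DMSO (LUC7L3 at -0.668 and LUC7L2 at -0.627). The lowest score of this list under DMSO, RBM25 at -0.822, did not pass (limma adjusted p = 0.0970). Of 15 kinases and import factors of SR proteins, 1 fell in both conditions, the import receptor TNPO1, at -0.923 under RUX and -0.854 under DMSO. TNPO1 carries hnRNP A1 into the nucleus, whereas TNPO3, the carrier of SR proteins, averaged -0.112 under RUX and 0.190 under DMSO, and the SR protein kinase SRPK1 -0.150 under RUX and -0.0879 under DMSO. Of 29 further splicing regulators, some were tissue-restricted and others, such as TIA1 and MBNL1, broadly expressed. Under RUX 2 had a score below -0.5 (RBFOX2 at -0.596, limma adjusted p = 0.182, and TIA1 at -0.546, limma adjusted p = 0.275). Under DMSO 2 had such a score (RBFOX2 at -0.639, limma adjusted p = 0.152, and MBNL1 at -0.523, limma adjusted p = 0.487). Of all genes 4.63% lay below -0.5 under RUX and 4.32% under DMSO, so these counts were near the background. Among 11 splicing genes mutated in myeloid neoplasms, SRSF2 and PRPF8 fell in both conditions and LUC7L2 under DMSO. In the contrast of RUX with DMSO the lowest adjusted p of these lists was 0.0942, for PTBP1.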

How the data were processed

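Genomic DNA of HEL-Cas9 cells carrying the Brunello library was amplified and sequenced in 9 libraries. The deposited guide table holds a signal, guide counts that the authors normalized across libraries with MAGeCK, and no fold changes. Dividing each library by the value of 1 read gave whole reads for 100% of values (tolerance 0.001). Libraries were scaled by the median ratio over 1000 non-targeting guides with day 0 as 1, 5 was added, and the natural log ratio to day 0 was averaged over guides with a day 0 value of at least 30, for genes with at least 2 such guides. Scores were fitted with limma 3.58.1 (R 4.3.3; trend on the mean level, 1 mean per condition over all 9 libraries, Benjamini-Hochberg, threshold 0.05). edgeR 4.0.16 and DESeq2 1.42.0 on the recovered reads, other scalings, pseudocounts of 1 and 20, filters, guide summaries, subtraction of the median of 20 neighbouring genes and omission of single libraries were alternatives. The script was tested on simulated data. The study's methods correct for copy number with a cell line profile, which was not used here. Guides were matched to genes by the table, and sites and positions come from GRCh38 and GENCODE, for 17949 genes by symbol, 983 by an older symbol and 182 not placed.

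The members and the lists were chosen with earlier results of these data known. Values in every library are given for SRSF2, for members with a score below -0.5 or an adjusted p under 0.05, and for the 3 largest differences between RUX and DMSO in each direction. Fits use the spread of the 8 day 12 libraries, since day 0 has 1 library.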

Additional observations from a re-analysis of the deposited data

Results flagged for a closer look

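Among the 72 sets of 4 libraries (36 genes in 2 conditions), 3 held a library that stood apart from the other 3 by more than Dixon's 95% limit, and chance flags about 1 in 20 sets, or 3.6 of 72. HNRNPA2B1 scored -0.0102 in RUX replicate 3, against -0.419 to -0.349 in the other RUX libraries. HNRNPCL3 scored -0.522 in RUX replicate 1, against -0.224 to -0.203 in the others. HNRNPK scored -0.306 in RUX replicate 3, against -0.136 to -0.111 in the others. All 3 are under RUX, and none of these genes was called in any comparison.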

How the results depend on the processing

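Under the 21 alternatives for scores and 23 for differences, SRSF1 stayed below -0.5 in each and passed under DMSO in all 21, with an adjusted p of 0.000716 to 0.0394, and under RUX in all but the variance trend against the score, added after seeing the data (0.0598, range 0.00073 to 0.0598). SRSF2 passed under DMSO in 17 of 21. The count of the 36 genes below -0.5 under RUX was 3 in place of 5 with the farthest guide left out, where the count over all genes was 930 in place of 884. The count falling under RUX (2) was 1 with libraries scaled to totals, values as deposited, a pseudocount of 1, the median over guides, the farthest guide left out or the neighbours subtracted, 4 without a variance trend, 0 with the trend against the score, and 1 to 3 without single libraries. Over all genes it was 302, and 77 with the median over guides, 102 with the farthest guide left out, 104 with the trend against the score, 117 with neighbours subtracted, 157 with totals, 153 as deposited, 181 by edgeR and 235 by DESeq2. It was also 251 with a pseudocount of 1, 329 without a variance trend and 233 to 394 without single libraries. The count falling under DMSO (2) was 1 with the median over guides (50 over all genes, 222 passing either way in the reported fit), the farthest guide left out (76) and the neighbours subtracted (94), and edgeR called 103 genes. For RUX against DMSO the count was 0 in each alternative but DESeq2, where it was 1 (52 genes over all, against 8), and over all genes it was 45 without DMSO replicate 2 and 1 without DMSO replicate 1.

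Some values changed sign, and except for HNRNPA1, which rests on 1 guide, the cause was not tested. The HNRNPA1 score under RUX, -0.434 as reported, was 0.0118 with the median over guides and 0.0774 with the farthest guide left out, and its difference 0.112 and 0.0796. The HNRNPA1L2 score under RUX was 0.0646 with totals, 0.077 as deposited, 0.00723 with a pseudocount of 20, 0.0386 with the median over guides, 0.137 with the farthest guide left out or the neighbours subtracted, -0.0156 to 0.0226 without single libraries, 0.0789 by edgeR and 0.0789 by DESeq2. The HNRNPR score under RUX was -0.0452 with the farthest guide left out, -0.00949 to 0.0815 without single libraries, and -0.0105 by edgeR and DESeq2. The SRSF1 difference was -0.0339 with the median over guides, -0.00717 by edgeR and -0.00711 by DESeq2. The SRSF3 difference was 0.0431 with the median over guides, 0.00744 with the farthest guide left out, -0.150 to 0.0115 without single libraries, and 0.0176 by edgeR and by DESeq2.

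Between same-numbered RUX and DMSO libraries, the correlations of deviations over genes were -0.00651, -0.126, -0.111 and 0.0335. Between libraries of different numbers they ranged from -0.1055 to 0.133. Whether libraries of the same number shared an infection cannot be told from these values. A fit of the day 12 libraries with the replicate block called 0 of the 36 genes and 11 genes over all, and 0 and 7 without the block. Depth limits the log ratios of guides that end at a few reads, such as the 1 of HNRNPA1 with a scaled value of 3.73 in RUX replicate 1.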

Other observations

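PTBP1 (hnRNP I), a repressor of exon inclusion that binds pyrimidine tracts, is an hnRNP without an HNRNP name, and it was chosen for this paragraph after its values were seen. It scored -0.09, 0.03, -0.08 and 0.22 under RUX (mean 0.0197 ± 0.145, SD, n = 4) and 0.22, 0.21, 0.77 and 0.47 under DMSO (mean 0.416 ± 0.265, SD, n = 4). RUX replicate 4 lay within the DMSO range and the other 3 RUX libraries lay below it. The difference was -0.397 (95% interval -0.586 to -0.207, limma adjusted p = 0.0942, exact permutation p = 0.0857), and among all 19112 genes it did not pass the threshold.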
